A study of Arabidopsis thaliana with 12 samples.

Results

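CBL proteins are calcium sensors that bind calcium through EF hands and then recruit CIPK protein kinases, whose NAF motif docks the sensor and releases the kinase from self-inhibition. The sensor places the complex at the plasma membrane or the tonoplast, where the kinase phosphorylates ion channels, transporters and pumps. The best known module is the SOS pathway, in which CBL4 (SOS3) and CIPK24 (SOS2) drive the sodium exporter SOS1 under salt, and other modules act on potassium, nitrate, ammonium, iron and abscisic acid (ABA) signalling. The genes described here are other members of the Arabidopsis families, namely CIPK1 to CIPK26 without CIPK24 and CBL1 to CBL9 without CBL4, chosen by their locus and not by any measured value. They are 33 genes, 25 CIPK and 8 CBL, of which 32 are among the 25405 loci that the array's probes were matched to.

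RNA came from whole 10-day-old Arabidopsis seedlings of ecotype Landsberg erecta (Ler), either wild type or proatcape1, a single T-DNA knockout line of PROAtCAPE1 (AT4G33730), which encodes the precursor of a secreted peptide. Each genotype was kept in half-strength Murashige and Skoog medium alone (control, labelled 0 h) or given 125 mM NaCl for 12 h (salt), with 3 biological repeats a group and 1 Agilent array a sample, 12 arrays in 4 groups. Control arrays carry 0 h and salt arrays 12 h, so a salt effect holds the treatment and the elapsed hours, which cannot be told apart. In whole seedlings, fewer cells of a type and less RNA per cell cannot be told apart either.

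Values for single arrays are given as the relative signal, the processed spot signal in percent of the 75th percentile signal of that array. Signals of different genes come from different probes and are not set against each other. Changes are differences of mean log2 relative signal with the standard error (SE) of 1 limma fit across 19027 genes and all 12 arrays. A gene passed, and is said to be higher or lower, to rise or to fall, at a Benjamini-Hochberg adjusted p of at most 0.05 over all genes and a change over 1.5-fold. Probes entered the test if, in some group, its 3 arrays all read above a signal of 100 and varied by less than 50% (coefficient of variation), and each locus was represented by its brightest such probe.

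Between 71.8% and 78.7% of probes on an array were well above background. PROAtCAPE1 had relative signals of 27.4, 36.4 and 28.6% in wild type control and 2.49, 2.01 and 2.24% in wild type salt, and was not well above background on any proatcape1 array, which put wild type at least 75.9-fold higher in control and at least 6.31-fold higher under salt (dim arrays set at the higher of their lowest well-above-background signal and the probe's own). The pollen markers VGD1 and SPIK were not well above background on any array, and the 5 leaf and 6 root markers were all tested. The seed storage marker CRA1 was not above background in wild type control and had 2.42 to 29.4% in proatcape1 control. Under salt it had 1.13 to 12.3% in wild type and 1.36 to 9.52% in proatcape1. The seed marker OLEO1 was above background on 1 wild type control array and on all arrays of the other groups. Both seed markers varied widely within groups, and neither entered the test.

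Of the 33 genes, 32 had at least 1 probe, 41 probes in all, and CBL3 (AT4G26570) had none. CBL5 (AT4G01420) was not tested, since its signals, from 3.06 to 64.3, stayed under 100 on all arrays, and it was well above background on at most 1 array of a group. The other 31, all 25 CIPK and 6 CBL genes, were tested. The limits on signal were met in all 4 groups by 28 of them, in the salt groups only by CIPK18 and CIPK22, and in the control groups only by CBL6. These 3 entered the test through the groups in which they were bright.

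Most of the family differed between the salt and control groups. In wild type, 18 of the 31 tested genes were higher, 7 were lower and 6 did not pass, where 17.5% of all tested genes were higher and 21.8% were lower. In proatcape1, 17 were higher, 5 were lower and 9 did not pass, against 19.6% and 26.2% of all genes. The median salt effect over the 31 was 0.72 in wild type and 0.95 in proatcape1, where the medians of all genes were −0.11 and −0.13. Kinases and sensors are given apart. Among CIPK genes, 17 of 25 were higher and 4 lower in wild type, with a median of 0.87, and 16 were higher and 3 lower in proatcape1, with a median of 1.08. Of the 6 CBL genes, CBL1 alone was higher in both genotypes, 3 were lower in wild type and 2 in proatcape1, with medians of −0.73 and −0.46. For all 25 changes that passed in wild type and all 22 in proatcape1, salt and control arrays did not overlap, which fixes 1 sign on each of the 3 slides. The genes were picked on these same arrays, and the share without overlap among all genes was not counted. These counts are thus no separate support for the changes.

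**Figure D1:**
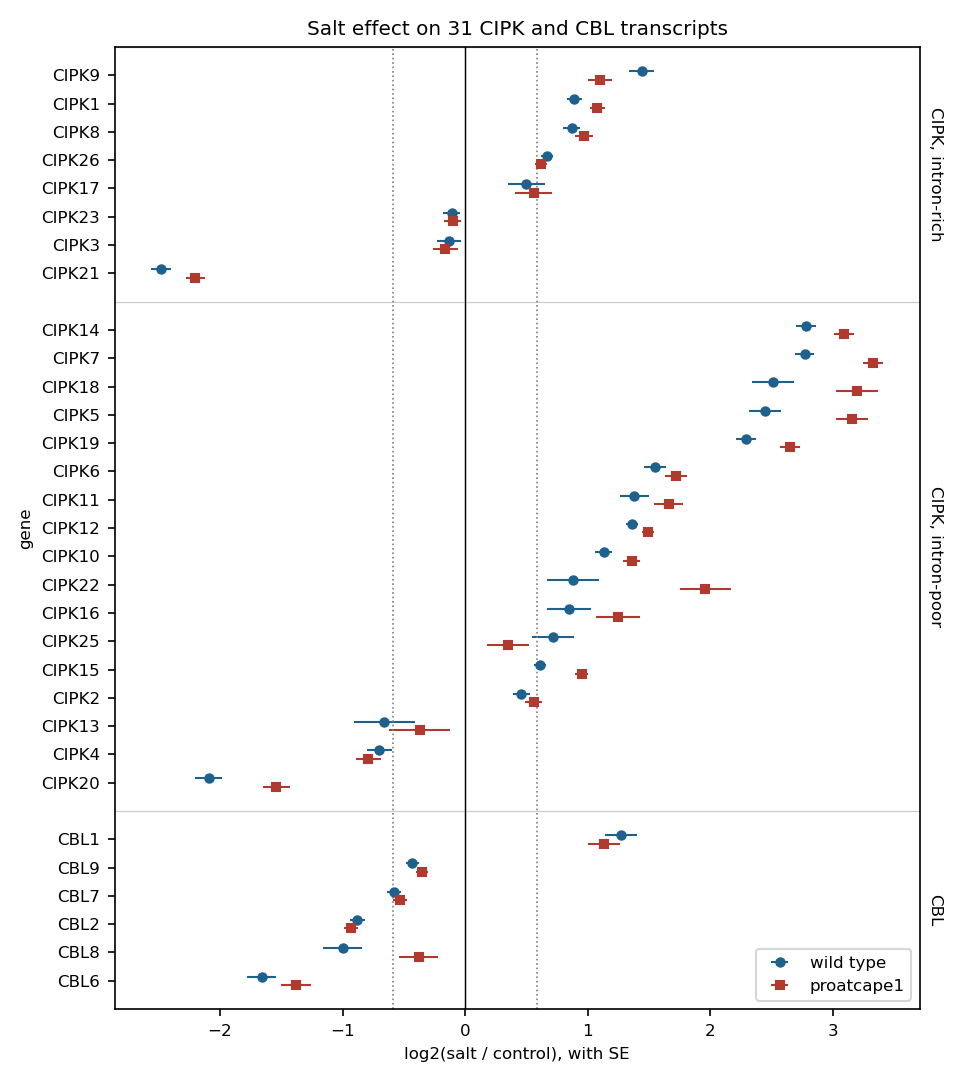
Salt effects of the 31 tested genes on the log2 scale (x axis, salt over control) in wild type (circles) and proatcape1 (squares), with bars for the SE and dotted lines at 1.5-fold. CIPK14 and CIPK7 stand highest in wild type at 2.78 and 2.77, CIPK21 lowest at −2.48, and 5 of the 6 CBL genes lie left of 0.

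By gene structure, CIPK genes fall into an intron-poor and an intron-rich clade, assigned here from general knowledge. Of the 17 intron-poor genes, 13 were higher, 3 lower and 1 did not pass in wild type (median 1.13), and 12, 2 and 3 did so in proatcape1 (median 1.49). Of the 8 intron-rich genes, 4 were higher, 1 lower and 3 did not pass in each genotype, with medians of 0.58 and 0.59. Of all tested genes, 17.5% were higher and 21.8% lower in wild type, and 19.6% and 26.2% in proatcape1. The difference between the clades was not tested.

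The largest increases were those of 5 intron-poor kinases, CIPK14, CIPK7, CIPK18, CIPK5 and CIPK19. CIPK14 (AT5G01820) had relative signals of 134, 130 and 136% in wild type control and 1035, 827 and 888% in wild type salt. In proatcape1 they were 138, 153 and 153% in control and 1317, 1163 and 1303% in salt. Every salt array thus lay above every control array in both genotypes, and the change was 2.78 (SE 0.08, adjusted p = 5.94e-10) in wild type and 3.09 (SE 0.08, adjusted p = 2.12e-10) in proatcape1. A second CIPK14 probe gave 2.74 and 3.24.

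CIPK7 (AT3G23000), a kinase that binds CBL1, had 237, 243 and 251% in wild type control and 1865, 1449 and 1704% in wild type salt. Its proatcape1 signals were 241, 261 and 246% in control and 2532, 2512 and 2452% in salt. The control arrays of the genotypes overlapped and the salt arrays did not. The change was 2.77 (SE 0.08, adjusted p = 4.21e-10) in wild type and 3.33 (SE 0.08, adjusted p = 9.48e-11) in proatcape1, a 10-fold rise that was the largest of the family.

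CIPK18 (AT1G29230) was dim in control, at 2.55, 2.99 and 2.32% in wild type and 2.16, 2.88 and 2.87% in proatcape1, though well above background on every array. Under salt it reached 17.6, 13.6 and 13.6% in wild type and 28.4, 25 and 19.5% in proatcape1. The salt arrays did not overlap with the control arrays, and the change was 2.51 (SE 0.17) in wild type and 3.20 (SE 0.17) in proatcape1. With normexp background correction, which lifts dim signals, these were 1.72 and 2.32.

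CIPK5 (AT5G10930) had 47, 57.6 and 48.8% in wild type control and 316, 227 and 301% in wild type salt. In proatcape1 it had 52.6, 55.1 and 50.6% in control and 491, 419 and 511% in salt. Control levels of the genotypes overlapped. The salt effect was 2.45 (SE 0.13, adjusted p = 2.41e-08) in wild type and 3.16 (SE 0.13, adjusted p = 2.93e-09) in proatcape1.

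CIPK19 (AT5G45810), a kinase known from polar growth of pollen tubes, had 8.9, 9.91 and 9.87% in wild type control and 51.4, 41.2 and 47.9% in wild type salt. The proatcape1 arrays read 10.4, 9.62 and 10% in control and 63.9, 62.9 and 61.8% in salt. The rise was 2.29 (SE 0.08) in wild type and 2.65 (SE 0.08) in proatcape1, with no overlap between salt and control.

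**Figure D2:**
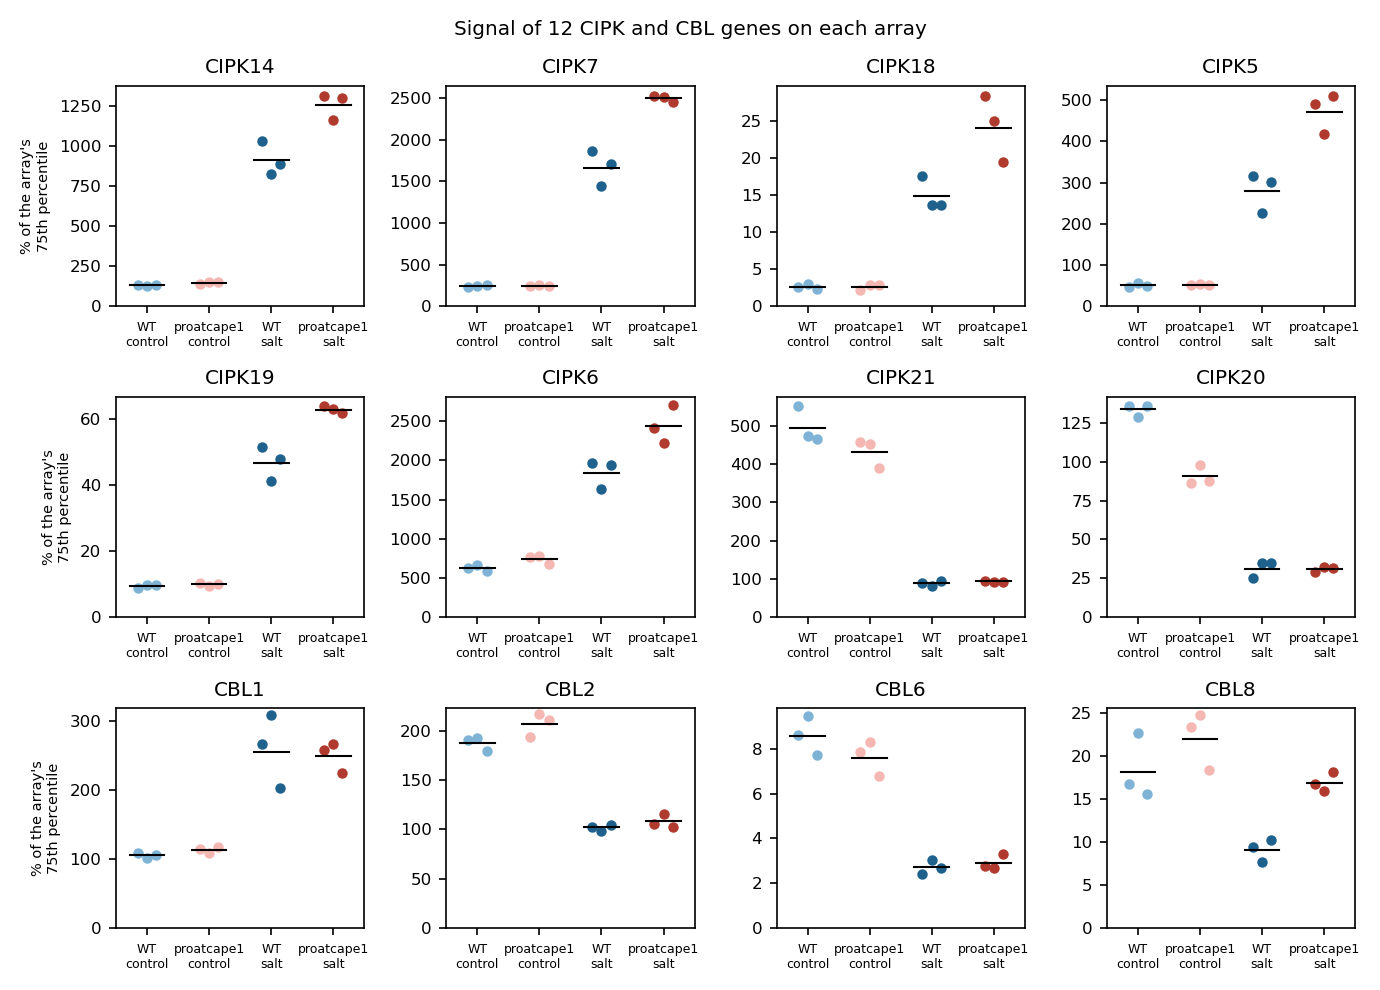
Relative signal of 12 genes on each array (y axis, percent of the array's 75th percentile signal, linear from 0), with 1 point per array and a line at the geometric mean of each group of 3. CIPK14, CIPK7, CIPK18, CIPK5, CIPK19 and CIPK6 are higher on every salt array, CIPK21, CIPK20, CBL2 and CBL6 lower, and CBL8 has proatcape1 salt arrays at 15.9 to 18.1% above wild type salt arrays at 7.72 to 10.2%.

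A further group rose 2- to 4-fold. CIPK6 (AT4G30960), the kinase that with CBL4 brings the potassium channel AKT2 to the plasma membrane, had 634, 666 and 593% in wild type control and 1966, 1635 and 1937% in wild type salt, a change of 1.55 (SE 0.09). In proatcape1 it had 765, 775 and 683% in control and 2407, 2218 and 2700% in salt, a change of 1.72 (SE 0.09). The groups of salt and control did not overlap.

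CIPK11 (AT2G30360), known as PKS5 and as an inhibitor of the proton pump AHA2, had 82, 92.4 and 68.1% in wild type control and 238, 188 and 204% in salt, a change of 1.38 (SE 0.12). Its proatcape1 signals were 85.5, 91.3 and 73.4% in control and 275, 263 and 248% in salt, a change of 1.66 (SE 0.12). CIPK12 (AT4G18700), which acts with tonoplast CBL proteins in pollen tube growth, had 104, 108 and 105% in wild type control and 284, 249 and 285% in salt, with 121, 114 and 115% and 325, 321 and 333% in proatcape1. Its changes of 1.36 and 1.49 had the smallest SE among these genes, 0.05. CIPK10 (AT5G58380) rose from 108, 114 and 105% to 247, 220 and 250% in wild type and from 115, 113 and 102% to 298, 274 and 271% in proatcape1, changes of 1.13 and 1.36 (SE 0.07).

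CIPK16 (AT2G25090), an activator of the potassium channel AKT1, was near the 2-fold mark. It had 15.2, 24 and 17.9% in wild type control and 33.6, 28.2 and 40.8% in salt, and 15.3, 17 and 12% and 36.5, 32 and 35.9% in proatcape1. The change was 0.85 in wild type and 1.25 in proatcape1 (SE 0.18). Within the slides the wild type change was 1.15, 0.23 and 1.19, so slide 2, with the brightest control array, showed little of it.

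CIPK22 (AT2G38490) had 4.18, 5.43 and 4.52% in wild type control and 11, 7.3 and 7.93% in wild type salt, a change of 0.88 (SE 0.21, adjusted p = 0.0028). In proatcape1 it had 3.45, 4.25 and 3.43% in control and 19.5, 10.9 and 14.1% in salt, a change of 1.96 (SE 0.21, adjusted p = 5.66e-06). The salt arrays of each genotype lay above their controls, with the widest spread in proatcape1 salt.

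In the intron-rich clade, CIPK9 (AT1G01140), which acts with CBL proteins in potassium nutrition, was the gene with the largest rise in wild type. Its relative signals were 231, 203 and 199% in wild type control and 568, 541 and 607% in salt, and 190, 178 and 169% in proatcape1 control and 326, 446 and 385% in salt. CIPK9 rose 2.71-fold in wild type and 2.14-fold in proatcape1 (SE 0.10 on the log2 scale), and its proatcape1 salt arrays were all below its wild type salt arrays. CIPK1 (AT3G17510), a kinase recruited by CBL1 and CBL9 and known from osmotic stress, had between 103 and 112% in wild type control and 206, 185 and 209% in salt, with 96.4, 99.8 and 96.5% and 206, 217 and 198% in proatcape1. Its rise was 0.89 in wild type and 1.08 in proatcape1 (SE 0.06), and of its other probes 1 gave the same 0.89 and 1.08 and the other 0.61 and 0.73.

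**Figure D3:**
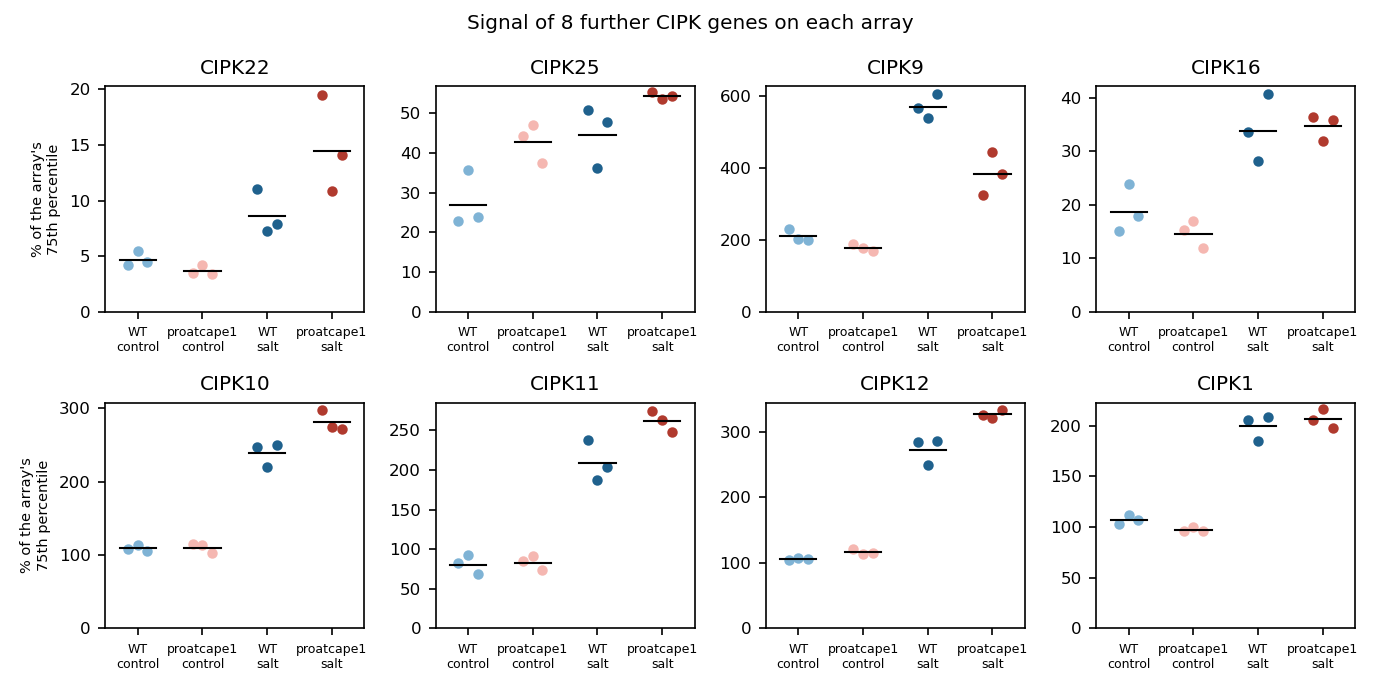
Relative signal of 8 further CIPK genes on each array (y axis, percent of the array's 75th percentile signal, linear from 0), with 1 point per array and a line at each group's geometric mean. CIPK9 salt arrays are at 541 to 607% in wild type and 326 to 446% in proatcape1, and CIPK22 salt arrays at 7.3 to 11% and 10.9 to 19.5%.

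Smaller increases that passed in both genotypes were those of CIPK8 (AT4G24400), known from nitrate signalling and from SOS1 regulation, at 0.87 and 0.97, CIPK15 (AT5G01810), a kinase of ABA and ammonium responses known as PKS3, at 0.61 and 0.95, and CIPK26 (AT5G21326), which binds the NADPH oxidase RBOHF and the ubiquitin ligase KEG, at 0.67 and 0.62. The other probes of CIPK26 gave 0.67 to 0.74 in wild type and 0.68 to 0.80 in proatcape1. CIPK25 (AT5G25110) rose by 0.72 (SE 0.17, adjusted p = 0.00255) in wild type, with 22.8, 35.7 and 23.9% in control and 50.8, 36.1 and 47.7% in salt, a change of 1.15, 0.02 and 1.00 within the slides. In proatcape1 its control arrays already read 44.3, 47 and 37.5% and its salt arrays 55.2, 53.6 and 54.3%, and the change of 0.35 (adjusted p = 0.0827) did not pass. The difference between these salt effects, −0.38 (SE 0.24, adjusted p = 0.344), did not pass either.

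Among the kinases that fell, CIPK21 (AT5G57630), an intron-rich kinase that CBL2 and CBL3 bring to the tonoplast and that is known from osmotic and salt stress, had the largest change. Its relative signals were 551, 473 and 465% in wild type control and 89, 82.8 and 94.9% in salt. In proatcape1 they were 456, 452 and 390% in control and 95.8, 92.9 and 93.2% in salt. The salt arrays of both genotypes lay together and far below the controls. The change was −2.48 in wild type (SE 0.08, adjusted p = 1.16e-09). In proatcape1 it was −2.20 (SE 0.08, adjusted p = 1.81e-09).

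CIPK20 (AT5G45820), known as PKS18 and from ABA responses, had 136, 129 and 136% in wild type control and 25.2, 34.7 and 35.1% in salt, a change of −2.09 (SE 0.11). It had 86.4, 98 and 87.5% in proatcape1 control and 29, 32.4 and 32% in salt, a change of −1.54 (SE 0.11). The control arrays of the genotypes did not overlap and the salt arrays did. CIPK4 (AT4G14580) fell by 0.70 in wild type and by 0.79 in proatcape1 (SE 0.10). CIPK13 (AT2G34180) fell by 0.66 (SE 0.25, adjusted p = 0.0302) in wild type, where 1 control array read 22.2% and the others at most 12%, and salt arrays 8.9, 7.97 and 10.8%. Without the bright wild type control replicate 2 the change was −0.36 (adjusted p = 0.112), without wild type salt replicate 1 it was −0.64 (adjusted p = 0.07) and without wild type salt replicate 2 it was −0.56 (adjusted p = 0.0944), and in proatcape1 the value was −0.37 (adjusted p = 0.189).

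Of the sensors, CBL1 (AT4G17615), a plasma membrane sensor that with CBL9 activates CIPK23 on AKT1, rose. It had 109, 102 and 106% in wild type control and 266, 308 and 202% in salt, a change of 1.27 (SE 0.13, adjusted p = 3.72e-06), and 114, 109 and 117% in proatcape1 control and 257, 267 and 225% in salt, a change of 1.13 (SE 0.13, adjusted p = 7.33e-06). The salt arrays of the genotypes overlapped and none reached down to a control array. Its close homologue CBL9 (AT5G47100) was at −0.43 and −0.35 (SE 0.05), under the 1.5-fold limit though with adjusted p of 2.61e-05 and 0.000118.

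CBL2 (AT5G55990), a tonoplast sensor, fell by 0.88 in wild type and by 0.93 in proatcape1 (SE 0.06), from 179 to 193% in wild type control to 98.2 to 105% in salt. CBL6 (AT4G16350), a further tonoplast sensor, had 8.63, 9.46 and 7.73% in wild type control and 2.43, 3.03 and 2.7% in salt, and 7.84, 8.29 and 6.77% in proatcape1 control and 2.79, 2.69 and 3.32% in salt. It fell by 1.66 and by 1.38 (SE 0.12), and with normexp background correction by 0.97 and by 0.71. CBL8 (AT1G64480), a sensor known to act on CIPK24 at high salinity, had 16.7, 22.7 and 15.6% in wild type control and 9.41, 7.72 and 10.2% in salt, a 2-fold fall (SE 0.16 on the log2 scale, adjusted p = 0.000138). In proatcape1 it had 23.4, 24.7 and 18.4% in control and 16.7, 15.9 and 18.1% in salt, a change of −0.38 (SE 0.16, adjusted p = 0.0414) that was under the limit of 1.5-fold. A second CBL8 probe gave −1.06 in wild type and −0.59 in proatcape1, the latter about 1.5-fold. The call in 1 genotype only thus depends on the probe.

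The 6 genes that passed in neither genotype were CIPK2, CIPK3, CIPK17, CIPK23, CBL7 and CBL9. CIPK23 (AT1G30270), the kinase of AKT1, of the nitrate transceptor NRT1.1 and of the iron transporter IRT1, was at −0.11 and −0.10 (SE 0.07), and CIPK3 (AT2G26980), known from ABA and cold responses, at −0.13 and −0.16 (SE 0.10). CIPK2 (AT5G07070) at 0.46 and 0.56, CIPK17 (AT1G48260) at 0.50 and 0.56 and CBL7 (AT4G26560), a sensor linked to AHA2, at −0.58 and −0.53 had adjusted p of at most 0.011 but changes under 1.5-fold. CBL7 was 1.49-fold lower in wild type, and it crossed the limit, at −0.59 to −0.61, without wild type control replicate 1 or 3 or wild type salt replicate 1 or 3. CIPK2 in proatcape1 did so at 0.64 without control replicate 1 and at 0.59 without salt replicate 3. CIPK17 crossed it in wild type at 0.62 without control replicate 3, and in proatcape1 at 0.71 without control replicate 2, at 0.60 without salt replicate 1 and at 0.63 without salt replicate 2. With no fold limit, 20 of the 31 genes were higher and 9 lower in wild type, where 31.9% and 46.8% of all genes were, and 19 were higher and 8 lower in proatcape1, against 33.7% and 48.6%.

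In the annotation, 3 pairs of these genes are direct neighbours, CIPK15 with CIPK14, CIPK19 with CIPK20, and CBL7 with CBL3. CBL3 had no probe, so changes can be set side by side for the first 2 pairs. In wild type CIPK14 rose 6.85-fold and CIPK15 1.53-fold, and CIPK19 rose 4.88-fold while CIPK20 fell by 2.09 on the log2 scale. The probe sequences were not used here, so signal shared between close homologues was not examined.

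Time and tissue markers moved on the same arrays as these salt effects. The morning clock genes CCA1, LHY, RVE8 and PRR9 were higher under salt, 4 of 4 in both genotypes, against 17.5% and 19.6% of all genes. Their medians were 4.64 in wild type and 5.70 in proatcape1. RVE8 and PRR9 met the limits on signal in the salt groups only, and so entered the test through the groups in which they were bright. The evening genes TOC1, PRR5, GI, LUX and ELF4 were lower, 5 of 5 in both, against 21.8% and 26.2% of all genes. Their medians were −3.03 and −2.96. Of 6 root markers, 4 were lower in both genotypes (medians −1.77 and −1.82), and of 3 guard cell markers 2 were lower (medians −0.61 and −0.82), against the same 21.8% and 26.2%. Of 5 leaf markers 1 was higher (medians −0.04 and 0.07), against 17.5% and 19.6%. The part of clock time and of tissue in the CIPK and CBL changes was not tested.

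Known partners of these modules were set beside them. Of the family genes outside the 33, the shoot sensor CBL10 (AT4G33000), an alternative to CBL4, fell by 0.91 in wild type and by 0.92 in proatcape1, while SOS2 (0.03 and 0.10) and SOS3 (−0.16 and 0.01) did not pass. Of 10 transport targets, 3 were higher and 2 lower in wild type, where 17.5% and 21.8% of all tested genes were. In proatcape1 3 were higher and 3 lower, against 19.6% and 26.2% of all genes. The channel gene AKT2 (AT4G22200) rose by 2.05 and 1.85, the anion channel gene SLAH3 (AT5G24030) by 1.15 and 1.45, and the potassium transporter gene HAK5 (AT4G13420) by 2.41 and 0.97. The iron transporter gene IRT1 (AT4G19690) fell by 2.48 in wild type, where 2 of 3 salt arrays were above background, and by 1.26 in proatcape1. IRT1 met the limits on signal in wild type control only, and entered the test through that group. The ammonium transporter gene AMT1;1 (AT4G13510) fell by 0.79 and by 0.77, and AHA2 (AT4G30190) fell by 0.70 in proatcape1 and was at −0.55 in wild type. SOS1, AKT1, NRT1.1 and SLAC1 passed in neither genotype, with values from −0.41 to 0.36.

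Of 8 other targets and partners, 6 were higher in both genotypes, against 17.5% of all genes in wild type and 19.6% in proatcape1. Among them HAI2 and ABR1 met the limits on signal in the salt groups only, and entered the test through these. The protein phosphatase 2C genes ABI1 (2.56 and 2.83), ABI2 (3.08 and 3.41) and HAI2 rose, whose products dephosphorylate or bind CIPK kinases. In wild type salt HAI2 read 218-fold above a control that was not well above background, so this fold is imprecise and is not a bound. The transcription factor genes ABR1 (3.65 and 4.04) and ABI5 (1.13 and 1.41) and the oxidase gene RBOHF (0.60 and 0.77) rose as well, while KEG and the co-chaperone gene J3 did not pass, at −0.04 to 0.19.

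**Figure D4:**
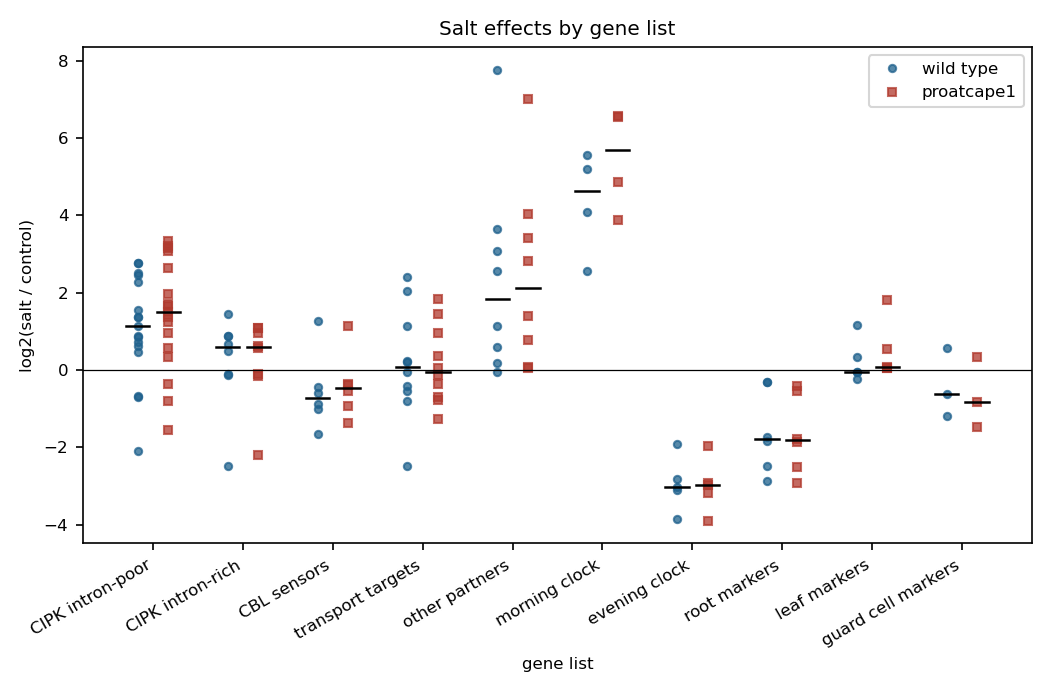
Salt effects (y axis, log2 of salt over control) of each tested gene by list, for wild type (circles) and proatcape1 (squares), with a line at the median of each list. The intron-poor CIPK genes have medians of 1.13 and 1.49, the CBL sensors −0.73 and −0.46, the morning clock genes 4.64 and 5.70 and the evening clock genes −3.03 and −2.96. The highest circle and square among the other partners are HAI2, and its circle rests on control arrays not well above background.

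The question of the mutant itself was put first in medium alone. In control, 1 of the 31 genes was higher in proatcape1, none was lower and 30 did not pass, where 0.967% of all tested genes were higher and 1.16% lower, and at an unadjusted p under 0.05 the limma fit had 11 of the 31 (35.5%) and 20.0% of all genes. The gene was CIPK25, whose signals are given above, with a difference of 0.67 (SE 0.17, adjusted p = 0.0487). It lay at the threshold. With the replicate number as a block the adjusted p was 0.0776, and it was lost on leaving out any array but wild type control replicate 2 or wild type salt replicate 2 (0.55 to 0.76, adjusted p up to 0.171), although the difference had 1 sign on all 3 slides (0.96, 0.40 and 0.65). CIPK20 at −0.56 (SE 0.11, adjusted p = 0.0181) was 1.48-fold lower in proatcape1, under the limit, and passed at −0.59 without wild type control replicate 2 and at −0.62 without proatcape1 control replicate 2. CIPK3 at −0.44 (adjusted p = 0.0286) and CBL7 at 0.24 (adjusted p = 0.0328) were further under it. At the same adjusted p with no fold limit 2 of the 31 were thus higher and 2 lower, where 3.27% and 2.49% of all genes were. CIPK3 had 444, 371 and 408% in wild type control and 331, 304 and 265% in proatcape1 control, and its other probes gave −0.43 and −0.49.

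The same comparison was made under salt. There 5 of the 31 genes were higher, none was lower and 26 did not pass, against 2.71% higher and 1.95% lower among all tested genes, with 17 of the 31 (54.8%) and 45.2% of all genes at an unadjusted p under 0.05 in the limma fit. They were CBL8 at 0.90 (SE 0.16, adjusted p = 0.00283), CIPK5 at 0.76 (SE 0.13, adjusted p = 0.0023), CIPK22 at 0.74 (SE 0.21, adjusted p = 0.022), CIPK18 at 0.70 (SE 0.17, adjusted p = 0.0114) and CIPK7 at 0.59 (SE 0.08, adjusted p = 0.000969). The second CBL8 probe gave 0.78. The salt arrays of the genotypes did not overlap for CBL8, CIPK5, CIPK18 and CIPK7, and for CIPK22 the lowest proatcape1 array, at 10.9%, lay just under the highest wild type array, at 11%. On the same arrays the 5 leaf markers were at 0.17 to 0.57 (median 0.27), 5 of 5 with an unadjusted p under 0.05 and none over 1.5-fold, the most changed being the carbonic anhydrase gene CA1 at 0.57 (adjusted p = 0.000163). Their summed relative signal was 58524 to 59754% in wild type salt and 68743 to 71677% in proatcape1 salt. The 6 root markers (median −0.02) and 3 guard cell markers (median −0.13) had no gene that passed, and the part of tissue in these differences was not tested.

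These differences were small, and some turned on single arrays. Without wild type salt replicate 2, CIPK7 was at 0.49, under 1.5-fold, and CIPK22 at 0.62 (adjusted p = 0.0874), leaving 3 genes. Without proatcape1 salt replicate 1, CIPK18 was at 0.58, CIPK7 at 0.58 and CIPK22 at 0.53 (adjusted p = 0.0721), leaving 2. CIPK7 also lay under the limit without proatcape1 salt replicate 2 (0.58), and CIPK22 did not pass without wild type salt replicate 3 (0.68) or proatcape1 salt replicate 3 (0.76, adjusted p = 0.0504). CIPK9 at −0.58 (SE 0.10, adjusted p = 0.00323) was 1.49-fold lower in proatcape1 and passed as lower at −0.62 without wild type salt replicate 2 and at −0.69 without proatcape1 salt replicate 2.

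With no fold limit, 12 of the 31 genes were higher in proatcape1 under salt and 3 were lower at the same adjusted p, where 14.6% and 19.4% of all genes were. Beside the 5 above, these were CIPK14 (0.46), CIPK19 (0.43), CIPK6 (0.40), CBL7 (0.28), CIPK12 (0.26), CIPK15 (0.24) and CIPK10 (0.23), all under 1.4-fold, and on the lower side CIPK9 (−0.58), CIPK3 (−0.47) and CIPK4 (−0.41).

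**Figure D5:**
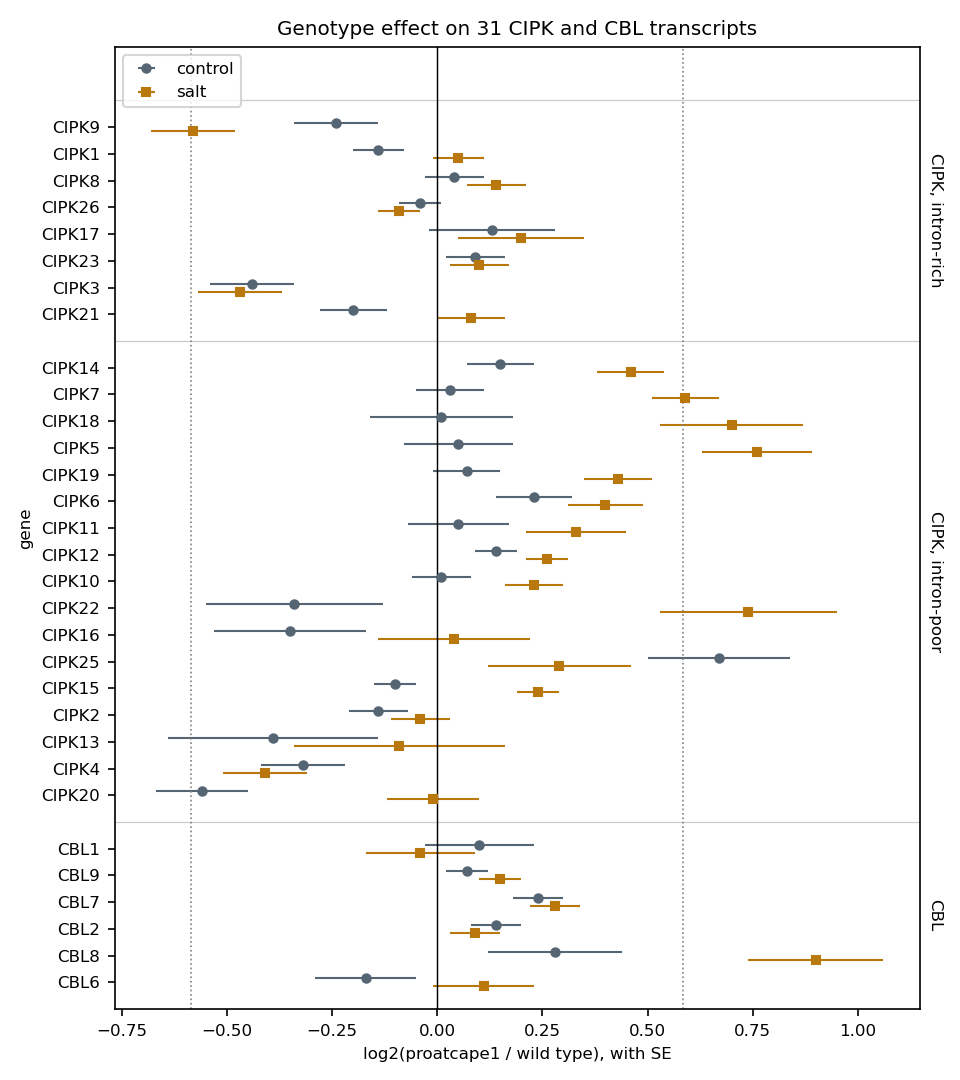
Genotype effects of the 31 tested genes on the log2 scale (x axis, proatcape1 over wild type) in control (circles) and under salt (squares), with bars for the SE and dotted lines at 1.5-fold. In control CIPK25 stands out at 0.67 and CIPK20 at −0.56, and under salt CBL8 is at 0.90 and CIPK5 at 0.76.

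The salt effect was then set against itself between genotypes, as the interaction of salt and genotype, in which a positive value is a greater salt effect in proatcape1. Of the 31 genes 1 passed as higher, none as lower and 30 did not pass, where 1.27% of all genes were higher and 1.29% lower, and 13 of the 31 (41.9%) and 27.3% of all genes had an unadjusted p under 0.05 in the limma fit. The gene was CIPK5, whose rise was larger in proatcape1 by 0.71 (SE 0.18, adjusted p = 0.0403), with 0.48, 0.95 and 0.71 on the 3 slides. With the replicate number as a block its adjusted p was 0.0554, and it kept its call on leaving out wild type salt replicate 1 or proatcape1 salt replicate 2 and lost it without any of the other 10 arrays (0.56 to 0.77, adjusted p up to 0.0972). CIPK7 at 0.55 (SE 0.11, adjusted p = 0.0211) and CIPK15 at 0.34 (SE 0.08, adjusted p = 0.03) had a difference in the same direction under the 1.5-fold limit, and CIPK7 passed at 0.64 without wild type salt replicate 1 and at 0.59 without proatcape1 control replicate 2. The largest value was that of CIPK22, 1.09 (SE 0.30, adjusted p = 0.0526), which passed at 1.26 without wild type salt replicate 1 and at 1.29 without proatcape1 salt replicate 2. CIPK18, at 0.69 (adjusted p = 0.0976), passed at 0.82 without wild type salt replicate 1. The smaller fall of CBL8 in proatcape1 gave 0.62 (SE 0.22, adjusted p = 0.109) and that of CIPK20 0.55 (SE 0.16, adjusted p = 0.061), neither of which passed. The second CBL8 probe gave 0.47 here. With no fold limit 3 of the 31 were higher in the interaction and 0 lower, where 2.84% and 4.82% of all genes were.

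Read over the genes that passed alike in both genotypes, 14 of the 17 that rose had the larger rise in proatcape1 (82.4%), the exceptions being CIPK9, CIPK26 and CBL1, with a median difference of 0.28. Of all 3138 genes that rose in both, 2231 (71.1%) had the larger rise in proatcape1, with a median difference of 0.15. Of the 5 that fell in both, CIPK4 and CBL2 fell further in proatcape1, where 77.2% of the 3889 genes that fell in both did so. Among the transport targets, HAK5 was higher by 2.68 (SE 0.25, adjusted p = 0.000172) in proatcape1 control, by 1.24 under salt, and its interaction, negative where that of CIPK5 was positive, was −1.44 (SE 0.35, adjusted p = 0.0365), which did not pass with the replicate number as a block (adjusted p = 0.0551). Of the 4 morning clock genes, 2 were lower in proatcape1 control and 3 had a higher interaction (median 1.14), against 1.16% and 1.27% of all genes. In proatcape1 control only CCA1 met the limits on signal, and RVE8 and PRR9 were well above background on 2 of 3 arrays. These clock values thus rest in part on dim signals, and their part in the CIPK differences was not tested.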

How the data were processed

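Agilent arrays with 1 colour, 1 per sample, were scanned and read by the authors with Feature Extraction software. The deposited scanner files hold the processed signal, a background-corrected intensity on a linear scale. The authors' deposited normalized values are in log2, and were checked to equal the log2 processed signal minus the 75th percentile of the array, less the probe's median over the 3 wild type control arrays (SD of the difference at most 0.0003, array medians −0.168 to 0.045). The log2 values used here are the same without that reference. Repeated spots were averaged in log2 without outlier flags, which left 43527 probes, of which 34306 were matched to a locus through their accession (TAIR10.1 names) and 9221 were not. No spot was saturated and no sample column was left unmapped (0). The filter kept 28833 probes and 19027 genes, 5319 of them with several probes.

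One model in limma 3.58.1 (R 4.3.3) estimated the 4 group means with no block, and 5 comparisons were taken from it. Other steps ran in Python 3.11.15 (pandas 2.3.3, numpy 2.4.6), and figures were drawn with matplotlib 3.10.9. On simulated data of the 19027 genes, the fit recovered 92 to 96 of 100 genes set to a 2-fold change and, for 4-fold, 96 to 100, and made 0 to 5 false calls per comparison. The simulated noise was independent between arrays and had the spread of the fit itself, and no gene beyond the set ones changed. These figures thus cover neither the correlation within slides nor calls under 2-fold, as those by genotype and the interaction were. Each slide held 1 array of each group and equals the replicate number, and slide 3 was scanned on another day than slides 1 and 2, so a replicate block is also a slide block. Deviations of arrays on the same slide correlated above 0.1 in 3 of 3 pairs of the salt groups (0.237 to 0.366), which counts as paired, in 2 of 3 pairs of the control groups (0.087 to 0.304) and in 1 of the other 12.

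The 33 genes were chosen by their locus and not by a measured value, but the genes and lists were set with earlier results of these data known. All 33 genes are accounted for. Values on every array are given for those that changed over 2-fold in a salt effect or passed in a genotype effect or the interaction, and genes of partner lists are named where they passed in a salt effect or to complete a list. CIPK3, CIPK13 and CBL2 have array values chosen after they were seen. Precision is limited by the 3 arrays in a group. No probe or promoter sequence was used here. The 26 alternative settings covered background correction, scaling, filters, probes per locus, arrays in the fit, the block, variance model, weights, test, fold threshold, the authors' values and leaving out each array.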

Additional observations from a re-analysis of the deposited data

Results flagged for a closer look

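The salt effect differed between genotypes at an adjusted p of at most 0.05 for 3 of the 31 tested genes, by limma's test of the difference itself. Each was higher in the interaction, where 2.84% of all tested genes were higher and 4.82% lower at this cutoff. CIPK5 rose more in proatcape1 by 0.71 (SE 0.18, adjusted p = 0.0403), CIPK7 by 0.55 (SE 0.11, adjusted p = 0.0211) and CIPK15 by 0.34 (SE 0.08, adjusted p = 0.03), of which CIPK5 alone was over 1.5-fold. With the replicate number as a block in the limma fit, the adjusted p of CIPK5 was 0.0554. All 3 differences had 1 sign on each slide, which is no separate support, since the genes were picked on these same arrays. Groups of 3 arrays are too small for a test of outlying samples.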

How the results depend on the processing

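No called change reversed direction under any of the 26 alternative settings, and of the called salt effects 14 of 25 in wild type and 17 of 22 in proatcape1 passed in every one. These settings include a 2-fold threshold, which a change under 2-fold cannot pass. All 7 calls by genotype and the interaction were under 2-fold, so none could pass in every setting. Under salt, CBL8 and CIPK5 kept their call in 25 of the 26 settings, CIPK18 in 24, CIPK7 in 20 and CIPK22 in 19. CIPK25 in control kept its call in 9 of 26, and the interaction of CIPK5 in 10 of 24. With a 2-fold threshold, 11 genes were higher and 3 lower in wild type salt, 3 were lower in proatcape1 salt, and 0 passed as higher in control, under salt or in the interaction. Of all 19027 genes, 2149 were higher and 1907 lower in wild type salt at that threshold, and 2591 were lower in proatcape1 salt. By genotype 65 of all genes were higher in control and 123 under salt, and 109 in the interaction. With no fold threshold, 8 were lower in proatcape1 salt, 2 were higher and 2 lower by genotype in control, 12 higher and 3 lower by genotype under salt, and 3 higher in the interaction. For the genotype effect in control, the count of 1 higher was 0 with quantile normalization, no filter on dim probes, the filter on probes well above background, the mean of probes, only the arrays of the groups compared or the replicate block, and array weights gave 1 lower. Under salt, normexp, quantile normalization and array weights each gave 1 lower, CIPK9. The interaction had 2 higher with normexp, quantile normalization, the intensity trend and array weights, and 0 with no filter, the filter on probes well above background or the replicate block. Among the 31 genes the replicate block changed the calls of CIPK25 and CIPK5 only, and the 5 genes higher under salt kept theirs. Among the listed partners and markers it ended the interaction call of HAK5 and added those of HAI2 (−0.76, adjusted p = 0.0246) and LHCB2.1 (0.62, adjusted p = 0.0458). Student's test and a fit of the compared groups alone were not run for the interaction. CIPK13 in wild type also lost its call with normexp, no filter, the arrays of the groups compared, array weights (−0.40) and Student's test, and CIPK22 in wild type with normexp (0.55).

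Leaving out 1 array gave 18 to 19 higher and 6 to 8 lower in wild type salt, 17 to 18 higher and 5 lower in proatcape1 salt, 0 to 1 higher and 0 to 1 lower by genotype in control, 2 to 5 higher and 0 to 1 lower under salt, and 0 to 4 higher (4 without wild type salt replicate 1) and 0 lower in the interaction. CBL5 was too dim to test, and CIPK18, CIPK22 and CBL6 were dim in the groups where they were low.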
